A study of Mus musculus with 9 samples.

Results

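A group of 9 genes encoding transcription factors of the endothelial lineage was followed through lung endothelial RNA from mice with altered Notch signalling: Sox7, Sox17, Sox18, Erg, Fli1, Ets1, Gata2, Foxf1 and Tal1. They were taken by symbol from the deposited count table, in which 9 of 9 were found once each among 56748 gene identifiers, and 9 of 9 passed the filter on low counts. The series holds 9 libraries from mice aged 6 weeks on a C57BL/6 background, with 3 libraries from WT mice, 3 from DNMAML mice and 3 from Notch1f/f mice. Cells negative for DAPI and for the leukocyte antigen CD45 and positive for the endothelial antigen CD31 had been sorted from the lungs of all 3 genotypes. DNMAML is the usual name of a truncated Mastermind-like protein that blocks Notch receptors from activating transcription, and Notch1f/f that of a Notch1 allele flanked by recombinase sites. The sources used here do not give the recombinase, its driver or whether WT mice carried it. Nor do they say that replicates are separate animals; the p-values therefore rest on the spread among these libraries alone, and that spread may be technical.

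These factors set and keep endothelial identity. Erg, Fli1 and Ets1 belong to the ETS family, whose binding sites lie in nearly every endothelial promoter and enhancer. Sox7, Sox17 and Sox18 form the SoxF group, which can stand in for each other in vessel development, and Sox17 is best known for its part in arteries. Gata2 and Tal1 act in blood-forming cells as well as in endothelium, where Gata2 keeps endothelial genes on. Foxf1 is a forkhead factor of lung mesenchyme and lung capillaries, and its loss causes malformed alveolar capillaries. Notch signalling lies beside this network: arterial Notch genes carry SoxF and ETS elements, and Gata2 is a known Notch target in blood-forming cells.

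Promoter sequence was available in the RefSeq table (GRCm38.p6) for 3 of the 9 genes, Erg, Gata2 and Tal1. The 250 bases before a start site are shown for 1 promoter of each, 5′ to 3′ on the gene's strand, to set the letters of sites for factors of this group and for Rbpj, the DNA-binding partner of Notch, beside their expression. Capitals mark any match, on either strand, to the GATA motif AGATAA, the Rbpj motif TGGGAA, the ETS motif CCGGAA or the SOX motif ACAAAG.
Erg, chr16:95459349-95459598, minus strand: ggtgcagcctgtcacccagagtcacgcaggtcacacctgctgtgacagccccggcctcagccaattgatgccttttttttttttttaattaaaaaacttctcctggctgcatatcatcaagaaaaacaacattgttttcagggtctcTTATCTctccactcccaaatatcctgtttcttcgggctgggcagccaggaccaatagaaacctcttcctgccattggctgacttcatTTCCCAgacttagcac
Tal1, chr4:115056176-115056425, plus strand: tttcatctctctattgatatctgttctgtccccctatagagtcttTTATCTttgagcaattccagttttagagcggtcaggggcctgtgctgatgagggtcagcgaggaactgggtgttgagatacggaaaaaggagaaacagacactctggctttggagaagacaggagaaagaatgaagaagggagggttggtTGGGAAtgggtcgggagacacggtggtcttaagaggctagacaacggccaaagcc
Gata2, chr6:88193641-88193890, plus strand: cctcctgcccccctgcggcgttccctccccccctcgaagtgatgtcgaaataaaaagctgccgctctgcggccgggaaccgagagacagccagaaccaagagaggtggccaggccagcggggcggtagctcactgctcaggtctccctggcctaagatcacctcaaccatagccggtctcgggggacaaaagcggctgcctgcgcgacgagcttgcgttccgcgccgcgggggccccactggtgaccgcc
The Erg and Tal1 windows each held 1 GATA match and 1 Rbpj match, and the Gata2 window held none of the 4 motifs. Of the 7 windows listed for these genes, the Erg and Tal1 windows shown were the only ones with a match to these motifs. No 2 matches overlapped. Among 32851 promoter windows of the same length in the table, 9.99% held AGATAA, 21.6% TGGGAA, 12% CCGGAA and 16.5% ACAAAG. A match describes letters only and is no measured site, and the lack of a match says only that these letters were not in the window.

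Library totals ran from 15522100 to 27842496 counts. Cdh5, which encodes VE-cadherin and served as a check of the sort, lay between 5366 and 6656 CPM (counts scaled to the TMM-adjusted library size) in the 9 libraries. Notch1 itself lay between 679 and 909 CPM in the 6 WT and DNMAML libraries and at 70.8, 29.5 and 176 CPM in Notch1f/f replicates 1 to 3. Signal from the immediate early genes, which respond within a short time to stimulation or handling of cells, split the libraries: Fos was at 319 CPM in WT replicate 2, 345 in DNMAML replicate 2 and 495 in Notch1f/f replicate 1, against 1230 to 2006 CPM in the other 6 libraries. Because these 3 libraries stand apart, results below are also given without them where that changes a call.

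All 9 genes were expressed in every library. The order of their levels was read from CPM per kilobase of counted exon length, as a description with no test. In WT, Sox18 had the highest level per length, 287 ± 16.1 CPM per kilobase, followed by Foxf1 at 277 ± 42.9 (SD, n = 3), and their libraries overlapped. Sox7 at 120 ± 18.7 and Erg at 104 ± 10.1 CPM per kilobase came next and overlapped each other too. Gata2 (77.7 ± 6.88) and Ets1 (76.9 ± 9.17) overlapped each other, and each Gata2 library lay below each Erg library. Sox17 (46.3 ± 2.23) and Fli1 (43.1 ± 1.05) were close, but the lowest Sox17 library, at 44.9, lay above the highest Fli1 library, at 44.0 CPM per kilobase. Tal1 was lowest at 13.3 ± 2.58 CPM per kilobase. Sox18 and Foxf1 held the top 2 places and Tal1 the last in each of the 3 genotypes. In Notch1f/f libraries Gata2 stood at 48.2 ± 16.2 CPM per kilobase, below the Fli1 mean of 62.5 ± 16.6, the reverse of WT. Notch1f/f replicate 1 kept the WT order, with Gata2 at 62.1 and Fli1 at 44.1 CPM per kilobase.

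**Figure D1:**
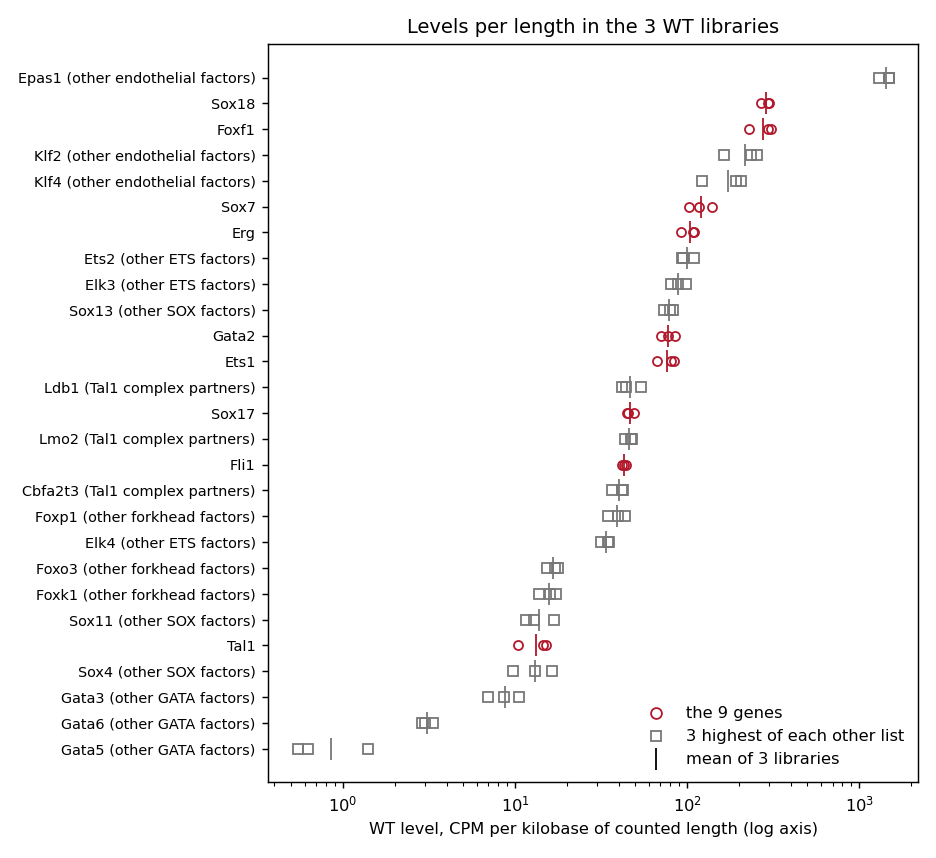
Level per length of the 9 genes (red circles) and of the 3 highest genes of each related list (grey squares) in WT, as CPM per kilobase on a log axis; each symbol is a library and each bar the mean of 3 libraries. Sox18 and Foxf1 lie near 280 CPM per kilobase, above the shear-responsive factor Klf2, while Tal1 lies near 13.

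Among relatives that the 9 genes could be compared with in WT, Ets2 (99.4 CPM per kilobase) and Elk3 (89.1) lay between Erg and Ets1, so that 4 ETS genes were within a narrow band. Of the SOX genes outside the SoxF group Sox13 was highest at 78.6 CPM per kilobase. Gata2 stood well above the other GATA genes, of which Gata3 was highest at 8.72 CPM per kilobase. The adaptor genes Ldb1 (46.6) and Lmo2 (46.1), whose products bridge Tal1 and GATA factors on DNA, lay above Tal1. The hypoxia-responsive factor Epas1, at 1429 CPM per kilobase, was the highest of all transcription factors listed.

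None of the 9 genes passed the threshold in any of the 3 genotype comparisons. The threshold was a Benjamini-Hochberg adjusted p below 0.05 over 19486 genes in edgeR's quasi-likelihood test on all 9 libraries. Notch1 itself did not pass in Notch1f/f against WT, at a log2 difference of -3.17 (SE 0.59, adjusted p = 0.0634 in that test). Not passing therefore does not show that a gene is unchanged. At an unadjusted p below 0.05, 2 of the 9 were counted for DNMAML against WT, beside 5.97% of all genes, 3 for Notch1f/f against WT, beside 13.4%, and 0 for Notch1f/f against DNMAML, beside 6.37%. Limma-voom also called 0 of 9 in each comparison, and DESeq2 called 0, 1 and 0. As background, 0.00513% of all genes passed for DNMAML against WT, 0.836% for Notch1f/f against WT and 0.0205% for Notch1f/f against DNMAML, with 0.0103% in each direction. The number of genes behind the second share was 163, and it ranged from 13 without WT replicate 1 to 530 without Notch1f/f replicate 1. Of the 27 unadjusted 95% intervals, 9 genes in 3 comparisons, 26 lay within a 2-fold change either way, and 16 lay within 1.5-fold. They rest on the spread among these libraries, which may be technical, so they do not bound the effect of a genotype. The median absolute log2 difference of the 9 genes was 0.19, 0.21 and 0.14 in the 3 comparisons in the order given, beside 0.24, 0.33 and 0.25 over all genes tested. All genes tested were not matched to the 9 for expression level, so these medians are a description only.

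**Figure D2:**
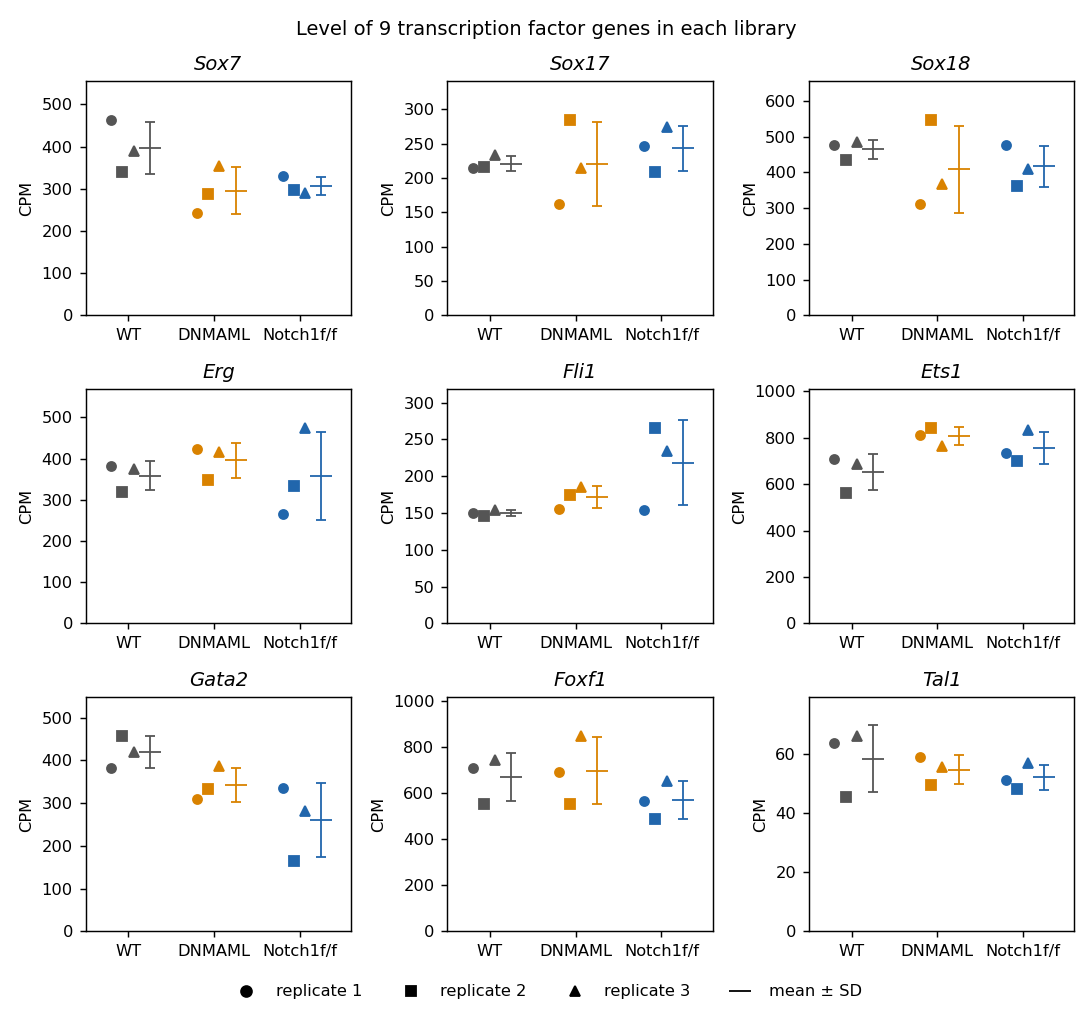
CPM of each gene in the 9 libraries, on linear axes from 0; symbols give the replicate number, bars beside them the mean ± SD of 3 libraries. Gata2 is lower and Fli1 higher in Notch1f/f than in each WT library, with 164 CPM and 265 CPM in replicate 2.

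Gata2 showed the largest difference among the 9 genes. Gata2 (ENSMUSG00000015053, chromosome 6, 88170873 to 88184014, plus strand, GRCm39) was measured at 383, 457 and 419 CPM in the WT libraries. The DNMAML values of Gata2 were 310, 332 and 386 CPM, those of Notch1f/f 335, 164 and 282. Every Notch1f/f library lay below every WT library, and the highest DNMAML library lay just above the lowest WT library. The log2 difference of Gata2 between Notch1f/f and WT was -0.69 (SE 0.22), a ratio of 0.621 with a 95% interval of 0.446 to 0.863. It did not pass (edgeR, Benjamini-Hochberg adjusted p = 0.162). DESeq2 placed it past the threshold (adjusted p = 0.0479), and so did the edgeR test without Notch1f/f replicate 1, with a log2 difference of -0.92 (adjusted p = 0.043). Without the filter on low counts it passed too (adjusted p = 0.00134). Its adjusted p lay between 0.00134 and 0.395 among the settings tried, and the difference was negative in each of the 20 alternatives. These alternatives reuse the same libraries, whose groups did not overlap, so the sign had little room to change. Between DNMAML and WT the log2 difference of Gata2 was -0.29 (SE 0.22), with a 95% interval from -0.77 to 0.18. The difference between both altered genotypes was -0.40 (SE 0.22, interval -0.87 to 0.08), an interval that includes 0.

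Markers of blood cells in which Gata2 and Tal1 are also active were read beside these values. Cpa3, a mast cell protease gene, had at most 3.85 CPM in any library, and its 3 Notch1f/f values were 0.671, 0 and 0.789 CPM. The mast cell and basophil list had 10 genes, of which 3 were tested: Kit, Hdc and Cpa3. The rest did not pass the filter on low counts. Its summed level was 968 to 1200 CPM in WT, 891 to 1328 in DNMAML and 939 to 1266 in Notch1f/f. The sum included Kit, which lung capillary cells also express, so it does not measure mast cells alone. The platelet and erythroid list, 11 of 14 genes tested, spanned 192 to 557 CPM in WT, 151 to 1164 in DNMAML and 144 to 398 in Notch1f/f. The aerocyte list, markers of the gas-exchange capillary cell, had summed levels of 3171 to 3418 CPM in WT, 2541 to 3673 in DNMAML and 1895 to 2761 in Notch1f/f. Its WT and Notch1f/f sums did not overlap. Nor did those of the venous list (2920.5 to 3393 CPM against 2094 to 2656), the arterial and mural lists or the endothelial identity genes. The general capillary and lymphatic sums overlapped. Of the 10 aerocyte genes 1, Tmcc2, fell in Notch1f/f against WT, beside 0.323% of all genes. That call held in 15 of 20 alternatives and was lost without any 1 of the WT replicates, without Notch1f/f replicate 2 and without the 3 libraries of low immediate early signal, with adjusted p up to 0.0805 (edgeR). The part of the aerocyte list in the Gata2 values was not tested. In such bulk libraries fewer cells of a type and less RNA per cell cannot be told apart.

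Fli1 stood on the other side. Fli1 (ENSMUSG00000016087, chromosome 9, 32333500 to 32454157, minus strand), an ETS factor close in sequence to Erg, had 150, 146 and 154 CPM in WT, the tightest set among the 9 genes with a coefficient of variation of 2.44%. In DNMAML it was at 155, 174 and 185 CPM, each above every WT library. Notch1f/f libraries had 154, 265 and 235 CPM, and the lowest, replicate 1, exceeded the highest WT library only by 153.7 against 153.5 CPM. The log2 difference of Fli1 between Notch1f/f and WT was 0.54 (SE 0.17), a ratio of 1.45 with a 95% interval of 1.12 to 1.89. It did not pass (edgeR, Benjamini-Hochberg adjusted p = 0.172). Without Notch1f/f replicate 1 it passed, with a log2 difference of 0.73 (adjusted p = 0.0111), and without the 3 libraries of low immediate early signal it passed at 0.72 (adjusted p = 0.037). Without the filter on low counts its adjusted p was 0.0236. Among the settings tried the adjusted p of Fli1 ran from 0.0111 to 0.561 and the difference was positive in 20 of 20 alternatives. With groups that did not overlap, refits of the same libraries could hardly turn this sign. For DNMAML against WT the difference was 0.19 (SE 0.17, interval -0.18 to 0.57), and for Notch1f/f against DNMAML it was 0.34 (SE 0.17, interval -0.04 to 0.72).

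Short annotated genes inside Fli1 introns gave a further reading of the locus. The 4 with the most counts on the Fli1 strand were Gm38292, Gm38346, Gm37474 and Gm37082. The WT libraries had 8.99, 11.0 and 6.93 CPM of Gm37082, DNMAML libraries 10.5, 8.64 and 9.14, and Notch1f/f libraries 19.8, 27.0 and 11.3, above each WT library. Log2 differences between Notch1f/f and WT were 1.11 (SE 0.32) for Gm37082 and 1.19 (SE 0.40) for Gm37474, and those of Gm38346 and Gm38292 were 1.05 (SE 0.37) and 1.07 (SE 0.63), none of which passed. Notch1f/f replicate 2 was highest in each of these 4 genes as it was for Fli1 exons, while replicate 1 was also above every WT library in all 4. Replicate 3 overlapped WT in Gm38292 (1.69 CPM, against 1.35 to 3.85 in WT), Gm38346 (9.92 CPM, against 4.74 to 10.7) and Gm37474 (8.06 CPM, where WT replicate 2 was higher). WT replicate 2 was the highest WT library in all 4, and DNMAML replicate 2 the highest DNMAML library in all but Gm37082. These libraries and Notch1f/f replicate 1 are the 3 of low immediate early signal, whose part in these values was not tested. These 4 genes lie inside Fli1 introns on the Fli1 strand, so reads from unspliced Fli1 RNA and from these genes cannot be told apart.

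Ets1 (ENSMUSG00000032035, chromosome 9, 32547517 to 32669116, plus strand) is the neighbour of Fli1, with a gap of 93360 bases between them. Ets1, the founding member of the ETS family, stood at 707, 563 and 685 CPM in the WT libraries. DNMAML libraries had 814, 841 and 766 CPM and did not overlap them. Notch1f/f libraries had 734, 700 and 834 CPM of Ets1 and overlapped WT by replicate 2. The log2 difference was 0.31 (SE 0.14, interval 0.01 to 0.60) for DNMAML and 0.21 (SE 0.14, interval -0.08 to 0.51) for Notch1f/f against WT. Neither passed (edgeR, Benjamini-Hochberg adjusted p = 0.799 and 0.564). Leukocytes also express Fli1 and Ets1, and the leukocyte marker Ptprc had 28, 26.7 and 1.39 CPM in DNMAML replicates 1 to 3. The whole leukocyte list, 16 of 22 genes tested, summed to 25.1 to 75.7 CPM in WT, 25.9 to 206 in DNMAML and 49.0 to 85.6 in Notch1f/f. Its part in the Fli1 and Ets1 values was not tested.

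Erg (ENSMUSG00000040732, chromosome 16, 95160028 to 95387452, minus strand) is the ETS factor most restricted to endothelium, and its groups overlapped in each comparison. It measured 382, 319 and 376 CPM in the WT libraries. The DNMAML values were 423, 347 and 416 CPM and the Notch1f/f values 265, 334 and 474. Within each genotype the library with the lowest Fos, WT replicate 2, DNMAML replicate 2 and Notch1f/f replicate 1, was also the lowest for Erg. The part of handling or cell state in this was not tested. Log2 differences from WT were 0.14 (SE 0.19) in DNMAML and -0.0048 (SE 0.19) in Notch1f/f, with 95% intervals of -0.28 to 0.56 and -0.42 to 0.41. Taken by replicate number, Erg was higher in DNMAML than in WT in 3 of 3 pairs. So were Fli1 and Ets1, while Sox7 and Gata2 were lower in 3 of 3. Sox17, Sox18, Foxf1 and Tal1 went both ways. The share of all genes ordered in this way was not counted, and the pairing by number was itself judged from these data. These orders are therefore a description only. With the number as a block in these 6 libraries the difference of Erg was 0.14 (SE 0.088, edgeR, Benjamini-Hochberg adjusted p = 0.570). The difference between Notch1f/f and WT turned to 0.09 without the 3 libraries of low immediate early signal and ran from -0.26 to 0.17 when single libraries were left out.

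Among the SoxF genes, Sox7 had the largest differences from WT. Sox7 (ENSMUSG00000063060, chromosome 14, 64181122 to 64188181, plus strand) had 463, 340 and 389 CPM in WT. DNMAML libraries had 244, 289 and 355 CPM, and Notch1f/f libraries had 332, 297 and 291, all of the latter below each WT library. DNMAML replicate 3 overlapped WT. The log2 difference was -0.43 (SE 0.16, interval -0.78 to -0.07) for DNMAML and -0.38 (SE 0.16, interval -0.73 to -0.02) for Notch1f/f against WT. Neither passed (edgeR, Benjamini-Hochberg adjusted p = 0.666 and 0.335), nor in any of the 20 alternatives of each comparison. These 2 comparisons share the WT libraries, so their like values are not independent. Between Notch1f/f and DNMAML the difference of Sox7 was 0.05 (SE 0.16, interval -0.30 to 0.40).

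Sox17 and Sox18, the other SoxF genes, varied more within DNMAML than between genotypes. Sox17 (ENSMUSG00000025902, chromosome 1, 4561154 to 4567577, minus strand) measured 214, 216 and 233 CPM in the WT libraries. The DNMAML values were 162, 285 and 215 CPM and the Notch1f/f values 247, 209 and 274. Sox18 (ENSMUSG00000046470, chromosome 2, 181311629 to 181313433, minus strand) measured 475, 435 and 484 CPM in the WT libraries. The DNMAML values were 312, 546 and 367 CPM and the Notch1f/f values 477, 362 and 410. DNMAML replicate 1 had the lowest and DNMAML replicate 2 the highest value of all 9 libraries for both genes. Their coefficients of variation were 4.82% and 5.62% in WT against 27.8% and 30% in DNMAML. Gja4, a connexin gene of arteries, followed in part: it was lowest in DNMAML replicate 1 at 123 CPM and stood at 274 CPM in replicate 2, but its highest value, 320 CPM, was in Notch1f/f replicate 3. Of the arterial list 1 of 10 genes, Efnb2, fell in Notch1f/f against WT, beside 0.323% of all genes. The Efnb2 call held in 14 of 20 alternatives; leaving out any 1 WT replicate, Notch1f/f replicate 2 or the 3 libraries of low immediate early signal ended it, with adjusted p up to 0.116 (edgeR). The whole list summed to 3258 to 3666 CPM in WT, 2581 to 3027 in DNMAML and 2114 to 3131 in Notch1f/f. The general capillary list summed to 13679 CPM in DNMAML replicate 1 and 18369.5 in DNMAML replicate 2, and the fibroblast list to 1705 and 365 CPM. Platelet and erythroid sums in these 2 libraries were 1164 and 164 CPM, while their leukocyte sums were alike, at 206 and 193 CPM. Whether a different share of arterial or other cells contributed was not tested.

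The log2 difference of Sox17 was -0.0030 (SE 0.18, interval -0.40 to 0.40) for DNMAML and 0.14 (SE 0.18, interval -0.26 to 0.54) for Notch1f/f against WT. For Sox18 these values were -0.19 (SE 0.19, interval -0.60 to 0.23) and -0.16 (SE 0.19, interval -0.58 to 0.26). A Sox17 exon overlaps Gm37587 on the opposite strand, which had at most 5.64 CPM in a library.

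Foxf1 (ENSMUSG00000042812, chromosome 8, 121811125 to 121814883, plus strand) measured 712, 551 and 745 CPM in the WT libraries. The DNMAML values were 692, 555 and 848 CPM and the Notch1f/f values 567, 489 and 653. The groups overlapped in each comparison. Log2 differences were 0.06 (SE 0.18, interval -0.34 to 0.46) for DNMAML and -0.23 (SE 0.18, interval -0.63 to 0.17) for Notch1f/f against WT. Fibroblasts and pericytes of the lung also express Foxf1, and the 12 mural genes summed to 395 to 607 CPM in WT, 261 to 499 in DNMAML and 121 to 222 in Notch1f/f. The 10 fibroblast genes, of which 0 passed, summed to 433 to 1353 CPM in WT, 365 to 1705 in DNMAML and 195 to 634 in Notch1f/f. Of the mural list 4 of 12 genes fell in Notch1f/f against WT, beside 0.323% of all genes that fell; they were Pdgfrb, Cspg4, Notch3 and Higd1b. Each of these 4 calls was lost without WT replicate 1, WT replicate 2 or Notch1f/f replicate 2, with adjusted p up to 0.124, and those of Cspg4 and Higd1b also with limma-voom. By sign alone, 8 of the 12 mural genes were lower in Notch1f/f than in WT and 4 higher. Among the higher ones was Rgs5, by 0.60 on the log2 scale (SE 0.18), which did not pass. The part of these cells in the Foxf1 values was not tested. Foxf2, the paralog of Foxf1, was picked out after its values had been seen. Its level was 28.7, 23.5 and 16.7 CPM in the WT libraries, against 3.94, 1.15 and 4.79 in those of Notch1f/f, a log2 difference of -2.81 (SE 0.66) that did not pass (edgeR, Benjamini-Hochberg adjusted p = 0.0881).

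Fendrr, a long noncoding RNA gene that starts 1276 bases from Foxf1 on the opposite strand, did not follow Foxf1 across the libraries. It measured 540, 728 and 504 CPM in the WT libraries. In DNMAML it measured 517, 754 and 448 CPM, and in Notch1f/f 753, 401 and 351. The 3 libraries with the lowest Fos were the 3 highest for Fendrr, between 728 and 754 CPM, against 351 to 540 CPM in the other 6. Foxf1 was between 551 and 567 CPM in those 3 libraries, and lower only in Notch1f/f replicate 2. The genotype differences of Fendrr were -0.04 (SE 0.30) and -0.24 (SE 0.30) against WT on the log2 scale. Gm38708, which lies 3210 bases from Gata2 on the opposite strand, was also highest in the 3 libraries with the lowest Fos. It had 19.3 to 23.0 CPM there, against 7.75 to 10.3 CPM in the other 6. How many genes shared this order was not counted.

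**Figure D3:**
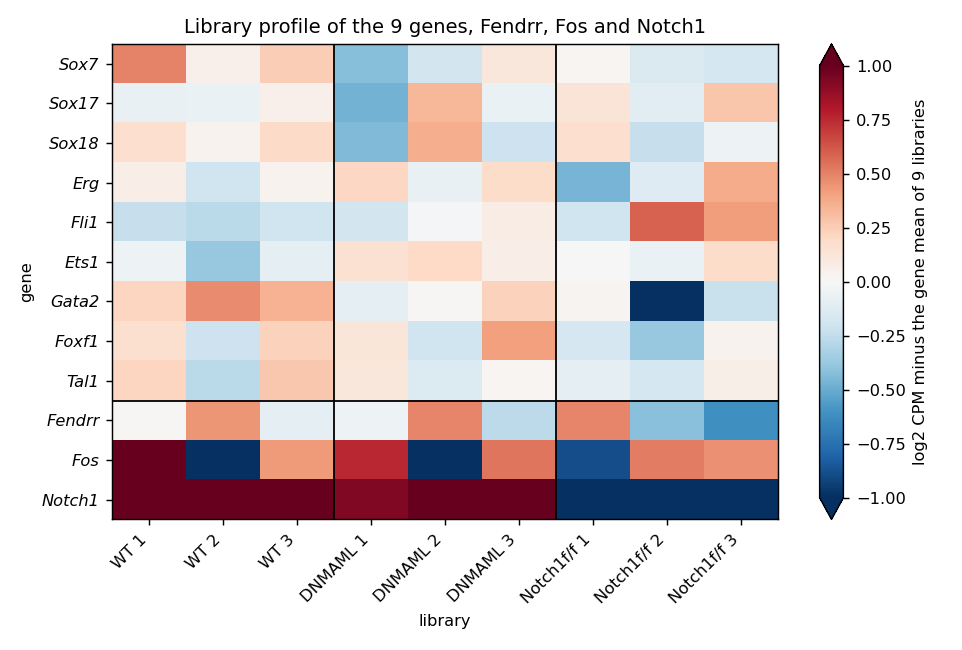
Log2 CPM minus the mean of the 9 libraries for each of the 9 genes and for Fendrr, Fos and Notch1 (rows) in every library (columns, vertical lines between genotypes); colours stop at 1 either way. Fendrr is high where Fos is low, and Sox17 and Sox18 are lowest in DNMAML replicate 1 and highest in DNMAML replicate 2.

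Tal1 (ENSMUSG00000028717, chromosome 4, 114913623 to 114928952, plus strand), which encodes the basic helix-loop-helix factor also called SCL, was the lowest of the 9 genes. It measured 63.5, 45.3 and 66.0 CPM in the WT libraries. In DNMAML Tal1 was at 59.1, 49.6 and 55.5 CPM and in Notch1f/f at 51.2, 48.3 and 56.8. All 6 DNMAML and Notch1f/f libraries lay inside the WT range. Log2 differences from WT were -0.09 (SE 0.16, interval -0.43 to 0.25) in DNMAML and -0.16 (SE 0.16, interval -0.50 to 0.18) in Notch1f/f.

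**Figure D4:**
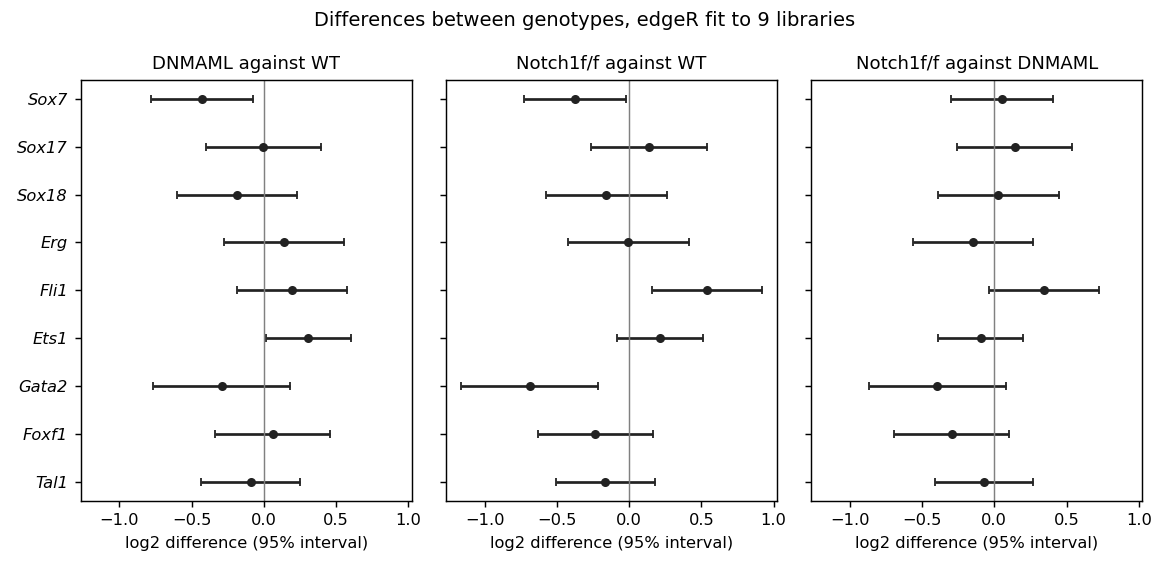
Log2 differences of the 9 genes in the 3 genotype comparisons (points) with unadjusted 95% intervals from the edgeR fit (bars); the grey line marks no difference. The intervals of 5 of the 27 lie to 1 side of 0: Sox7 and Ets1 for DNMAML, and Sox7, Fli1 and Gata2 for Notch1f/f, each against WT.

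Groups were also compared by the order of the libraries alone. For DNMAML against WT, 2 of 9 genes were higher without overlap (Fli1 and Ets1), beside 7.58% of all genes, and 0 of 9 lower, beside 6.84%. For Notch1f/f against WT, 1 of 9 was higher (Fli1), beside 8.5%, and 2 of 9 lower (Sox7 and Gata2), beside 9.33%; 17.8% of all genes were separated either way. For Notch1f/f against DNMAML 0 of 9 were separated, beside 4.4% of all genes higher and 5.32% lower, 9.72% in all. WT and DNMAML libraries with the same number deviated together, and in the fit to those 6 libraries 310 genes passed with the number as a block and 78 without it, but 0 of the 9 in either; with the block the lowest adjusted p among them was 0.208, for Gata2 (edgeR, Benjamini-Hochberg).

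Few related transcription factors passed the threshold, as few of all genes did. Of the other ETS genes 0 of 19 tested passed in any comparison, of the forkhead genes 0 of 22 and of the other GATA genes 0 of 4. Beside them, at most 0.836% of all genes passed in a comparison. At an unadjusted p below 0.05 (edgeR), 3, 6 and 1 of these were counted for Notch1f/f against WT, beside 13.4% of all genes. Among the other SOX genes, 8 tested, 1 rose and 1 fell in Notch1f/f against WT, beside 0.513% of all genes that rose. Sox4, a SOXC gene often high in growing cells, rose in Notch1f/f by 0.99 on the log2 scale (SE 0.19; edgeR, Benjamini-Hochberg adjusted p = 0.0382), with means of 62.4 ± 16.1 CPM in WT and 124 ± 21.1 CPM in Notch1f/f (SD, n = 3). The call held in 9 of 20 alternatives: it was lost in 7 of the 9 fits that left out 1 library, all but those without Notch1f/f replicate 1 or DNMAML replicate 2, with adjusted p up to 0.143. It was also lost with limma-voom (adjusted p = 0.0621) and in the fit of the 2 genotypes only (adjusted p = 0.0583). In DNMAML Sox4 had 110 ± 13.4 CPM, a log2 difference of 0.82 (SE 0.19) that did not pass. Sox5 fell from 16.8 ± 6.21 CPM to 3.19 ± 0.70 CPM in Notch1f/f, by 2.40 on the log2 scale (SE 0.36, adjusted p = 0.0165). That call held in 15 of 20 alternatives. It was lost without WT replicate 1, WT replicate 2 or Notch1f/f replicate 2, with adjusted p up to 0.0771, and with limma-voom (adjusted p = 0.0712). The mural markers called above fell in the same libraries, and their part was not tested. Summed cell cycle markers, 20 of 20 tested, were at 151 to 174 CPM in WT, 482 to 608 in DNMAML and 208 to 707 in Notch1f/f, with 9 genes that rose in Notch1f/f against WT, and their part in the Sox4 values was not tested.

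Partners of Tal1 gave 1 call. Cbfa2t3, which encodes the corepressor ETO2 found in Tal1 complexes, stood at 353, 351 and 305 CPM in the WT libraries. Notch1f/f libraries had 236, 199 and 196 CPM, all below WT. Its log2 change was -0.68 (SE 0.14; edgeR, Benjamini-Hochberg adjusted p = 0.0479). This call held in only 7 of 20 alternatives. It was lost in 7 of the 9 fits that left out 1 library, all but those without Notch1f/f replicate 1 or DNMAML replicate 2, with adjusted p up to 0.192. Upper-quartile scaling, limma-voom, the fit without robust estimation and the fit of the 2 genotypes only ended it too. DNMAML libraries, at 188, 248 and 217 CPM, were also below each WT library, with a log2 difference of -0.63 (SE 0.14) that did not pass (adjusted p = 0.175). The other 9 partners, Lmo2 and Ldb1 among them, did not pass. Of 24 other endothelial factors tested, 1 passed, beside 0.323% of all genes that fell. It was Heyl, a Notch target that fell by 1.85 on the log2 scale (SE 0.38, adjusted p = 0.0482) in Notch1f/f. Its call held in 10 of 20 alternatives and was lost without any 1 of WT replicates 1 to 3, DNMAML replicate 3 or Notch1f/f replicates 1 and 2. It was also lost with limma-voom (adjusted p = 0.107), without robust estimation (adjusted p = 0.0521) and without the 3 libraries of low immediate early signal (adjusted p = 0.0979). In DNMAML the log2 difference of Heyl from WT was -0.12 (SE 0.36), which did not pass. The mural markers Pdgfrb (-2.33), Notch3 (-2.36) and Cspg4 (-2.14 on the log2 scale) fell in the same Notch1f/f libraries, while Rgs5 of that list did not (0.60). The part of mural cells in the Heyl values was not tested. Among 35 endothelial identity genes, many of them with known ETS elements, 2 rose in Notch1f/f, Cd34 by 1.46 (SE 0.21) and Aplnr by 1.30 (SE 0.20), and 0 fell, beside 0.513% and 0.323% of all genes. Both calls were lost without WT replicate 1 or WT replicate 2, and that of Aplnr also without WT replicate 3. The list had a median log2 difference of -0.17 in Notch1f/f and -0.10 in DNMAML against WT, beside 0.02 and 0.0090 for all genes tested. In DNMAML 0 of these 35 genes passed.

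Genes with the most similar library profile were found by the root mean square distance of centred log2 CPM over the 9 libraries, among 15439 genes. The nearest to Gata2 were Madd, at a distance of 0.07, and Tmem100, at 0.09, where Gata2 itself varied by 0.41 around its mean. Tmem100, a BMP-induced gene of endothelium, had 1108 ± 30.0 CPM in WT, 903 ± 121 in DNMAML and 681 ± 260 in Notch1f/f; its log2 difference between Notch1f/f and WT was -0.70 (SE 0.24), which did not pass. Fli1 was nearest to Ralb (0.06) and Tnip1 (0.08), Erg to Micu2 (0.06) and Lgals3bp (0.07), and Ets1 to Nudt21 (0.07) and Zfp146 (0.08). Sox7 was nearest to Zfp953 (0.08) and Sirt1 (0.09), Sox17 to Nhsl1 (0.10) and Farsb (0.11), and Sox18 to Pdp2 (0.10) and Tubgcp5 (0.11). For Foxf1 these were Nampt (0.08) and Rab5b (0.08), and for Tal1 Abcd3 (0.06) and Bcap31 (0.06). With 9 libraries and this many candidates, near profiles are found for any gene, and the list is a description only.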

How the data were processed

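The authors deposited 1 table of raw, unscaled read counts, with a row per gene and a column per library. Counting was done with featureCounts 2.0.1 and Ensembl release 107 on GRCm39, per the file headers. Alignment used STAR 2.7, per the submitters' processing notes, which give mm10 where the header gives GRCm39. The recorded command sets no option for strand, read pairs or multi-mapping reads, so reads shared by overlapping genes or near-identical copies are uncertain. Between 76.6% and 89% of counts below 200 in a library were even. Column Length, the merged exon length in bases, was used for levels per kilobase.

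Symbols came from GENCODE M21 (GRCm38), names only. filterByExpr left 19486 genes, which were fitted with edgeR 4.0.16 in R 4.3.3: TMM scaling, robust quasi-likelihood, genotype the only term, all 9 libraries. SE is the absolute log2 difference divided by the square root of F, and 95% intervals use the same degrees of freedom. The test was run on simulated data first. Alternatives used DESeq2 1.42.0, limma-voom 3.58.1, other scaling, filters and libraries. Named genes were all 9 factors, genes of the lists past the threshold, the 3 highest relatives per list in WT, defining markers, genes within 5000 bases or overlapping, and the 2 nearest profiles. The members and the 20 lists were chosen with earlier results of these data known.

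Labels number libraries 1 to 3 per genotype without saying what a number marks. Deviations of same-numbered WT and DNMAML libraries correlated at 0.179 to 0.344, and differently numbered ones at -0.27 to 0.0774, so the number was judged, on the data alone, to pair these 2 genotypes. The reported values still come from the fit without a block, and the block is an alternative. For Notch1f/f it was not (-0.13 to 0.191 with WT and -0.12 to 0.212 with DNMAML). The highest correlation between genotypes, 0.352, was between WT replicate 2 and Notch1f/f replicate 1. Both are libraries of low immediate early signal, as are WT replicate 2 and DNMAML replicate 2, which correlated at 0.344. The part of that signal in the pairing by number was not tested. No 2 libraries of a genotype agreed within sampling noise.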

Additional observations from a re-analysis of the deposited data

How the results depend on the processing

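None of the 9 genes passed for DNMAML against WT or Notch1f/f against DNMAML in any of the 20 alternatives of each. For Notch1f/f against WT the number that passed, 0 in the reported fit, was 2 without a filter on low counts (Fli1 and Gata2), 1 with DESeq2 (Gata2), 1 without the 3 libraries of low immediate early signal (Fli1), and 0 to 2 when single libraries were left out. The alternatives with those 3 libraries left out or with immediate early signal as a covariate were chosen after seeing the data, as was the use of all settings on the named genes of the other lists. Counts over all genes moved far more; the cause was not tested. For DNMAML against WT, 1 in the reported fit, they were 460 without a filter, 213 with DESeq2, 0 with limma-voom, 0 without robust estimation, 78 with the 2 genotypes only, 40 without the 3 libraries, 49 with the covariate, and 0 to 94 with single libraries left out. For Notch1f/f against WT, 163 in the reported fit, they were 1415 without a filter, 1061 with DESeq2, 69 with limma-voom, 348 without the 3 libraries, 520 with the covariate, and 13 to 530 with single libraries left out. Leaving out WT replicates 1, 2 and 3 in turn gave 13, 18 and 47, Notch1f/f replicates 1, 2 and 3 gave 530, 36 and 291, and DNMAML replicate 2 gave 322. For Notch1f/f against DNMAML, 4 in the reported fit, they were 696 without a filter, 174 with DESeq2, 1 with the 2 genotypes only, 48 without the 3 libraries, 13 with the covariate, and 2 to 31 with single libraries left out. With the replicate block in all 9 libraries 4, 279 and 4 genes passed in the 3 comparisons in that order, and with the block in the 2 genotypes only 310, 92 and 8; the block changed no call of the 9 genes. Among the other named genes, for Notch1f/f against WT, the block in all 9 libraries ended the calls of Sox4 and Cbfa2t3, and the block in the 2 genotypes only those of Sox4, Sox5, Cbfa2t3, Heyl, Cd34, Higd1b and Efnb2, with adjusted p from 0.0502 to 0.138.

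Of 540 alternative values of single genes 27 changed sign, none of them past the threshold. Sox17 for DNMAML was 0.0046 with upper-quartile scaling, 0.0033 without a filter and -0.22 to 0.18 with single libraries left out. Erg for Notch1f/f against WT was 0.013 with upper-quartile scaling, 0.00016 without a filter, 0.089 without the 3 libraries, 0.029 with the covariate and -0.26 to 0.17 with single libraries left out. Sox7 for Notch1f/f against DNMAML was -0.038 without the 3 libraries. With single libraries left out, Foxf1 and Tal1 for DNMAML ran from -0.10 to 0.21 and from -0.24 to 0.016. In the same fits Sox7, Sox17, Sox18 and Erg for Notch1f/f against DNMAML ran from -0.072 to 0.21, -0.039 to 0.36, -0.13 to 0.28 and -0.41 to 0.021. By CPM without length, 3 of the 9 genes kept their place in the order of WT levels, since that alternative ranks longer genes higher.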
